A study of Sus scrofa with 4 samples.

Results

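The gene models described here were high in the lung and kidney of the Tibetan pig and low in its heart and liver. They were chosen by their RPKM, a read count divided by the model's length in kilobases and by the library's total reads. A model had to reach 10 RPKM in both lung and kidney, and the lower of these 2 values had to be at least 5 times the higher of heart and liver, with 1 RPKM added to each value. Of 18367 models with reads in any library, 119 (0.648%) met this rule. Models at least 5 times higher in 1 of the 2 tissues than in all other libraries were then set aside, 14 for kidney and 1 for lung. Of the 104 left, 1 was 10000 bases or longer, 4 were 250 bases or shorter and 1 lay on a scaffold treated as a cluster of its own. The remaining 98 models, 0.534% of all models, are the members.

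The libraries came from the Tibetan breed of Sus scrofa, with 1 library each for heart, liver, lung and kidney, made with a TruSeq kit from Trizol-extracted total RNA. The title of the series gives their purpose as transcript evidence for gene annotation. No treatment, genotype, age or number of animals is named in the labels. A single library stood for each tissue, so no replicate error and no test between tissues can be given. Each difference below therefore compares libraries, and the 95% intervals cover counting error only. Reads on models totalled 8853076 in lung and 5486480 in kidney, with 14062622 for heart and 4090775 for liver. In whole tissue, fewer cells of a type and less RNA per cell cannot be told apart.

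Lung and kidney are both organs in which sheets of epithelium lie against dense beds of capillaries, for the exchange of gases in lung and for filtration and the recovery of salts and water in kidney. Both also hold cells with cilia, transporting epithelia, abundant endothelium and connective tissue around tubes. Heart wall is mostly cardiac muscle, and liver is mostly hepatocytes, which make plasma proteins and handle nutrients, bile and foreign compounds. Which of these functions the members serve could not be read, because the files pair no identifier with a gene name and 0 of the 18367 identifiers matched the reference tables of pig genes. For the same reason the tissue labels were not checked against marker genes, and few models are named for each comparison.

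Since all 4 values chose the members, their levels are given as a description. The member median was 38.9 RPKM in lung and 43.7 RPKM in kidney, against 0.764 in heart and 0.717 in liver. Lung values ran from 10.04 to 739 RPKM and kidney values from 10.5 to 536 RPKM, while heart reached at most 71.6 and liver at most 95.04. Most members were of moderate level. The lower of the lung and kidney values was between 10 and 30 RPKM in 50 members, between 30 and 100 in 36 and 100 or more in 12. Among all models of the library, the highest member ranked 120 in lung and 251 in kidney, and 15 members stood among the top 1000 of lung and likewise 15 among the top 1000 of kidney.

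**Figure D1:**
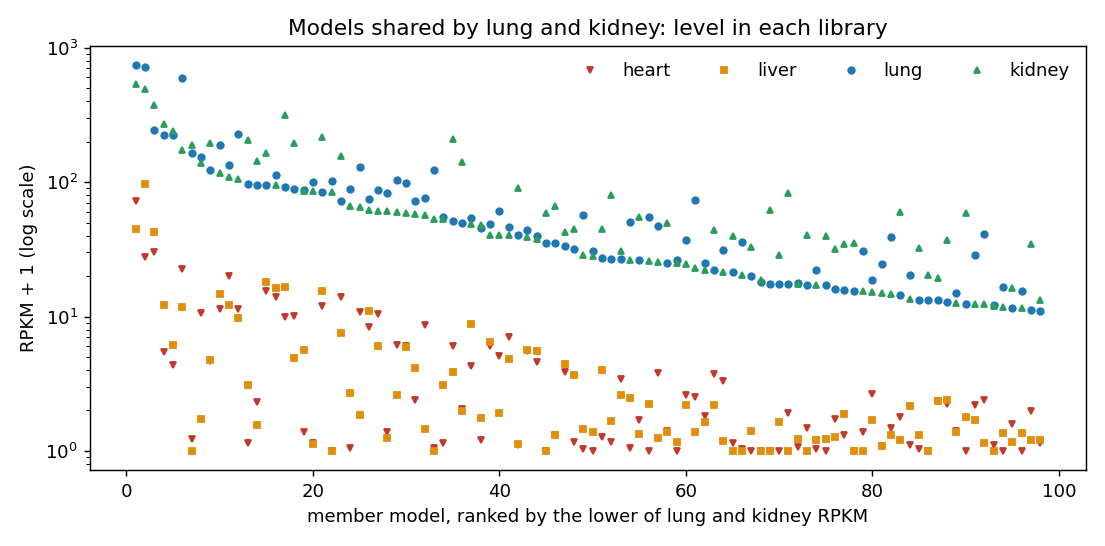
RPKM + 1 on a log axis for each of the 98 members in each of the 4 libraries, ranked from left to right by the lower of lung and kidney RPKM. Lung and kidney points lie above 10 throughout by the rule. Heart and liver points reach as high as 95.04 RPKM at the left, and the level that the rule allows them falls to the right. Points near 0 RPKM occur at the left too, as for evm.model.scaffold47809.1.

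Members took a small and nearly equal share of the lung and kidney libraries. They held 1.12% of lung reads (95% Clopper-Pearson interval 1.12 to 1.13) and 1.14% of kidney reads (1.13 to 1.15), against 0.0579% of heart reads (0.0566 to 0.0591) and 0.0584% of liver reads (0.0561 to 0.0608). These reads were concentrated: the 10 members with most reads held 46.9% of the member reads in lung and 43.7% in kidney. In both libraries the first was evm.model.scaffold25006.30, with 11.8% of the member reads in lung and 8.004% in kidney, and the next was evm.model.scaffold38749.4.

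By the lower of the 2 values, evm.model.scaffold47192.33 stood highest. This model of 849 bases was at 739 RPKM in lung (719.8 to 759), 536 in kidney (515 to 558), 71.6 in heart (66.9 to 76.6) and 43.5 in liver (36.8 to 51.0). The next, evm.model.scaffold25006.30 with 1857 bases, was at 715 RPKM in lung (702 to 728), 489.7 in kidney (476 to 503), 95.04 in liver (88.2 to 102) and 26.7 in heart (24.8 to 28.8). Both were therefore well expressed in heart and liver too, above the median of all models listed in those libraries, 7.46 RPKM in heart and 6.10 in liver. They belong to the set by ratio and not by silence elsewhere.

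On the RPKM + 1 scale the contrast was steepest in 2 short models. The first, evm.model.scaffold47809.1 with 311 bases, was at 163 RPKM in lung (149 to 179) and 189 in kidney (169 to 211), with 1 read in heart and 0 reads in liver. Its fold over heart and liver was 134. Its lung level was 715 times the heart level (128 to 28295), a ratio that rests on that 1 heart read. It was 69.3 times the floor of 3 reads in liver, and the 95% interval of the lung ratio over liver began at 56.1. The second, evm.model.scaffold46064.33, is the shortest member with 303 bases. It was at 101 RPKM in lung (89.4 to 114) and 83.01 in kidney (69.7 to 98.1), with 0 reads in heart and in liver. Its kidney level was 118 times the floor of 3 reads in heart and 34.3 times that in liver. The 95% intervals of the kidney ratio began at 94.6 over heart and 27.5 over liver.

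Across the members the fold of the rule ran from 5.11 to 134 with a median of 9.33. It was 10 or more in 45 members, 20 or more in 17 and 50 or more in 4, and below 6 in 19. The 2 members nearest the 5-fold limit were evm.model.scaffold25006.30 at 5.11 and evm.model.scaffold985.11 at 5.16. Just outside were evm.model.scaffold46016.54 at 4.99, with 69.9 RPKM in lung, 158 in kidney, 11.7 in heart and 13.2 in liver, and evm.model.scaffold12506.16 at 4.98, with 34.3 in lung, 57.9 in kidney, 6.08 in heart and 2.73 in liver. In the fold of the rule the models on either side of this limit were nearly alike, though their levels differed. On plain RPKM, the counting intervals of the lower tissue over heart and over liver both lay above 5 for 80 of the 98 members. The interval over heart did so for 96 and that over liver, the library with fewest reads, for 81.

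The scale of the libraries changed the size of the set. When each library was divided by its median ratio to the mean of all 4, over 10247 models above 1 RPKM throughout, liver values rose (factor 0.614) and lung and kidney values fell (factors 1.38 and 1.27). The count then went from 98 to 57 models, 56 of them in common. The 42 members lost had a median fold of 6.31 and the 56 kept a median of 15.4. The folds overlapped, with 13.3 the highest lost and 6.72 the lowest kept. Lower lung and kidney values could also put a member under the 10 RPKM minimum, and such losses were not counted apart. Among the models named so far, evm.model.scaffold25006.30 and evm.model.scaffold985.11 were lost, while evm.model.scaffold47192.33, evm.model.scaffold47809.1, evm.model.scaffold46064.33 and evm.model.scaffold38749.4 were kept. When each library's RPKM values were instead scaled to a common sum (TPM-like scaling), the count was 127 models and 2 members were lost. The lost members included evm.model.scaffold25006.30, which held the most member reads in lung and kidney.

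Which of lung and kidney was higher was set by the rule only through its 5-fold bound, and here the members were split. Lung was above kidney in 52 members and kidney above lung in 46. For 37 members the counting interval of the lung to kidney ratio lay wholly above 1, for 42 wholly below 1, and for 19 it included 1. The median lung minus kidney difference in log2(RPKM + 1) was 0.04, with quartiles of -0.91 and 0.49. Over all 6902 models that reached 10 RPKM in both tissues the median was -0.01, with quartiles of -0.73 and 0.63, and lung was above kidney in 49.4%. Median-ratio scaling moved the split to 45 members higher in lung and 53 higher in kidney, against 44.2% of models higher in lung under the same scaling. For the 6350 of the 6902 models that lay within 5-fold, as members do, the unscaled quartiles were -0.63 and 0.59. By the median and the split, members thus lay close to all models of this level on either scale.

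Larger differences between the 2 tissues were more often toward kidney. On the RPKM + 1 scale 22 members, 22.4%, were at least 2-fold higher in kidney, against a background of 18.7% of the 6902 models. Only 9 members, 9.18%, were at least 2-fold higher in lung, against a background of 15.9%. The other 67 lay within 2-fold. The rule sets aside models beyond its 5-fold bound in both directions, so these shares are a description of what it left. The background was not so bounded. Of the 6902 models 6350 lay within 5-fold, and the 2-fold shares of those are not given here. Both background shares therefore include models that the bound would bar from the members. The 49 members of higher level, by the lower of the 2 values, had a median lung minus kidney difference of 0.15 and the 49 of lower level one of -0.20, both in log2(RPKM + 1).

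**Figure D2:**
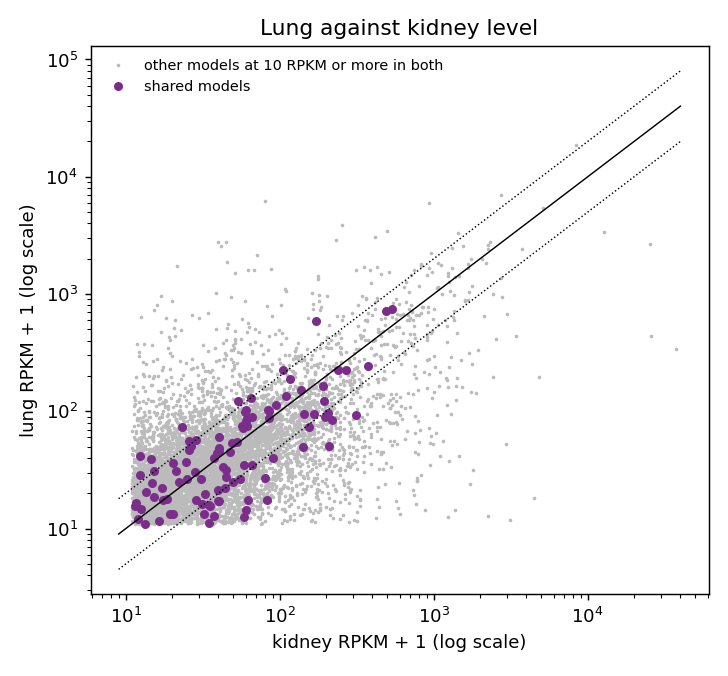
Lung against kidney RPKM + 1 on log axes for the 98 members (large points) and for the other models at 10 RPKM or more in both libraries (small points). The solid line marks equal levels and the dotted lines a 2-fold difference: 67 members lie between the dotted lines, 22 on the kidney side and 9 on the lung side.

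On the RPKM + 1 scale the members most tilted to lung were evm.model.scaffold8882.38 and evm.model.scaffold985.11. The first, with 681 bases, was at 589 RPKM in lung (570.1 to 609) and 172 in kidney (159 to 185), a ratio of 3.44 (3.16 to 3.74), with 21.4 in heart (18.6 to 24.5) and 10.8 in liver (7.27 to 15.4). The second, with 3213 bases, was at 40.3 RPKM in lung (38.0 to 42.7) and 11.3 in kidney (9.83 to 13.02), a ratio of 3.55 (3.05 to 4.15), with 1.39 in heart (1.07 to 1.78) and 0.152 in liver (0.0184 to 0.550). Both intervals of the ratio lay far from 1, and in both models heart exceeded liver.

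On the same scale the members most tilted to kidney sat just inside the 5-fold bound. In evm.model.scaffold11160.100, a model of 549 bases, kidney was at 82.3 RPKM (72.4 to 93.2) and lung at 16.5 (13.1 to 20.5), a kidney to lung ratio of 5.002 (3.87 to 6.52), with 0.907 in heart (0.365 to 1.87) and 0 reads in liver (upper limit 1.64). In evm.model.scaffold2626.8, with 924 bases, kidney was at 57.4 RPKM (51.0 to 64.4) and lung at 11.5 (9.29 to 14.1), a ratio of 4.995 (3.95 to 6.37), with 0 reads in heart (upper limit 0.284) and 0.794 RPKM in liver (0.164 to 2.32). These ratios and intervals are on plain RPKM, and both intervals include 5. The bound applies to RPKM + 1, where the log2 lung minus kidney differences were -2.25 and -2.23, inside it. Both models left the set under median-ratio scaling.

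Heart and liver divided the members into those below detection in both and those read in 1 or both, at up to 71.6 RPKM in heart and 95.04 in liver. With detection set at 1 RPKM, 44 members (44.9%) were below it in both tissues, 12 (12.2%) were detected in heart only, 9 (9.18%) in liver only and 33 (33.7%) in both. Members below detection in both were lower in the tissues that defined them, with medians of 19.6 RPKM in lung and 32.7 in kidney, against 86.6 and 94.1 for those detected in both. Their median fold was 14.3 against 6.78. The rule ties these values together, since a model of low level passes only where heart and liver are near 0.

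Reads were found in all 4 libraries for 75 members. Heart alone had 0 reads for 9 members, liver alone for 8, and both for 6. The 6 had between 12.3 and 101 RPKM in lung and between 17.6 and 83.01 in kidney. At the median member length of 1342.5 bases the floor of 3 reads was 0.159 RPKM in heart and 0.546 in liver, so a 0 in liver left more room than a 0 in heart. Members had a median of 16.5 reads in heart and 5.5 in liver, against 509.5 in lung and 326.5 in kidney.

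Heart and liver were level over the set as deposited. Heart exceeded liver in 46 members, liver exceeded heart in 46, and the 6 without reads were equal. The median heart minus liver difference in log2(RPKM + 1) was 0, with quartiles of -0.44 and 0.47. Over all 15357 models that reached 1 RPKM in some library that median was 0.46 and heart was above liver in 66.7%. Under median-ratio scaling heart exceeded liver in 35 members and liver exceeded heart in 57, against 52.5% of models with heart higher. The rule caps whichever of the 2 tissues is higher, and no test of the difference from other models was made. For 16 members the counting interval of the heart to liver ratio lay above 1 and for 19 below 1.

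**Figure D3:**
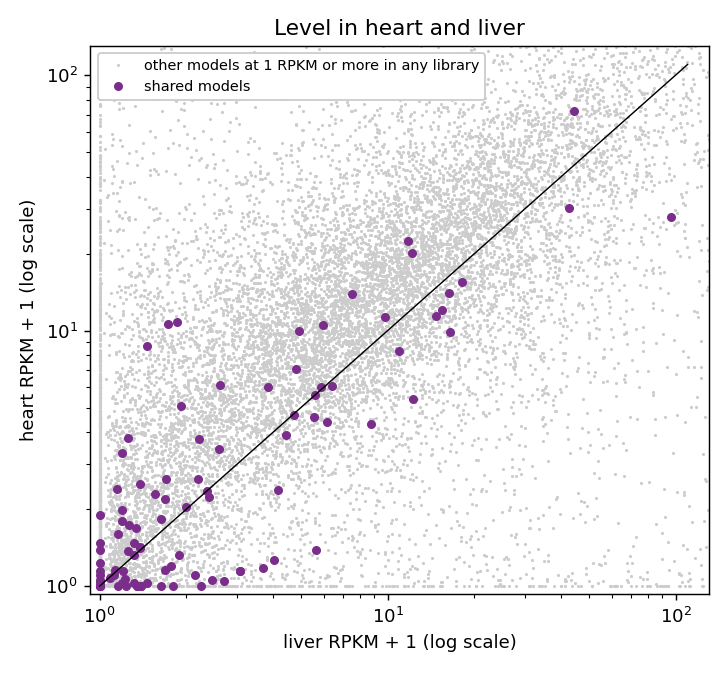
Heart against liver RPKM + 1 on log axes for the 98 members (large points) and for other models that reached 1 RPKM in some library (small points); both axes end at 130, which holds every member. Members fall evenly about the line of equal level, with 46 on each side, and crowd toward the lower left corner.

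Single members leaned strongly to one side, and those named were ranked on the RPKM + 1 scale. On plain RPKM other members, with fewer reads in the lower tissue, had larger ratios of liver to heart. In evm.model.scaffold38749.4, of 5691 bases, heart was at 9.57 RPKM (8.91 to 10.3) and liver at 0.730 (0.425 to 1.17), a ratio of 13.1 (8.13 to 22.6), beside 152 RPKM in lung (149 to 155) and 137 in kidney (133 to 141). In evm.model.scaffold16839.79, of 1071 bases, heart was at 7.70 RPKM (6.36 to 9.24) and liver at 0.456 (0.0553 to 1.65) from 2 reads, a ratio of 16.9 (4.57 to 141), beside 74.6 RPKM in lung (69.2 to 80.3) and 56.2 in kidney (50.3 to 62.6). Lung and kidney were nearly equal in the first of these, with a ratio of 1.11 (1.07 to 1.16).

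On the RPKM + 1 scale, by which models were ranked, the opposite lean was largest in evm.model.scaffold48433.14, of 1104 bases. Liver was at 4.65 RPKM (2.88 to 7.11) and heart at 0.386 (0.142 to 0.841), a liver to heart ratio of 12.03 (4.70 to 36.4), while lung at 86.7 RPKM (80.9 to 92.7) and kidney at 84.5 (77.4 to 92.2) differed by no more than counting error, with a ratio of 1.03 (0.918 to 1.15). The next on that scale was again evm.model.scaffold25006.30, with a plain liver to heart ratio of 3.56 (3.20 to 3.95). The leaning members so ranged from near absence in 1 tissue to a clear level in both.

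Apart from its 2 limits, length was not part of the rule. Member lengths had a median of 1342.5 bases and quartiles of 784 and 1984. The 6601 other models at 10 RPKM or more in lung and kidney and inside the same limits had a median of 1320 and quartiles of 798 and 2190.0. The same rule applied to other pairs of tissues gave 172 models shared by liver and kidney (0.936% of all models), with a median of 1234.5 bases, and 96 shared by heart and lung (0.523%), with a median of 1396.5. Models of 3000 bases or more made up 11.2% of members, against 4.07% of those of liver and kidney, 20.8% of those of heart and lung and 13.4% of the other models of that level. Member lengths therefore lay near those of models of like level. The longest, evm.model.scaffold24248.9 with 8805 bases, was at 30.2 RPKM in lung (29.0 to 31.4), 20.3 in kidney (19.1 to 21.7), 2.33 in heart (2.07 to 2.61) and 0.194 in liver (0.0781 to 0.400).

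Position on the assembly was not part of the rule either, apart from the 3 scaffolds left out. The members lay on 89 scaffolds. On 8 of these there was more than 1 member, together 17 members or 17.3% of the set. This share was 17.4% for the models shared by liver and kidney and 8.33% for those shared by heart and lung. The number of models on the scaffold of a member, a median of 20.5, was larger than for liver and kidney (13) or heart and lung (9), which bears on how often members can meet. Members with consecutive model numbers numbered 6 (6.12%), against 2 (1.16%) for liver and kidney and 4 (4.17%) for heart and lung. Whether model numbers follow the order along a scaffold is not stated in the files.

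The 3 consecutive pairs had similar but not equal profiles. On scaffold 9672, model 2 was at 91.7 RPKM in lung and 313 in kidney and model 3 at 122 and 194, with heart and liver between 3.66 and 15.5. On scaffold 46016, model 46 was at 20.3 RPKM in lung and 38.5 in kidney and model 47 at 30.8 and 43.8. On scaffold 1830 the direction turned: model 6 was higher in kidney, with 34.5 RPKM (31.1 to 38.2) against 14.6 in lung (12.8 to 16.5), and model 7 higher in lung, with 54.4 (49.03 to 60.2) against 24.7 (20.2 to 29.8). Under median-ratio scaling model 2 of scaffold 9672 and model 47 of scaffold 46016 left the set. Only the pair on scaffold 1830 stayed whole. Whether such neighbours are parts of 1 gene, related copies or separate genes was not tested. Reads that match several copies could be split among them in a way the sources used here do not describe.

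The models numbered next to members were examined because they were not chosen by the rule. There were 154 such models, beside 91 of the members, and 142 of them reached 1 RPKM in any library. Lung and kidney were both above heart and liver in 70 of the 142, or 49.3%, against a background of 38.6% of all 13579 models that are not members, reached 1 RPKM and have a numbered neighbour, the 142 included. Lung and kidney were both at least 2-fold above heart and liver, on the RPKM + 1 scale, in 33 of the 142, or 23.2%, against a background of 8.35%. Under median-ratio scaling the members were chosen anew, and 82 models next to them reached 1 RPKM, so these are not the same 142 models. The first measure held for 23 of the 82, or 28.0%, against 17.5% of the other models under that scaling. The second held for 8, or 9.76%, against 2.92%. All shares fell while those beside members stayed the higher. Neighbouring models share a scaffold and are not independent, and no test was made of these shares.

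The 2-fold share was smaller farther away, while the share with lung and kidney merely above heart and liver showed no steady fall. The latter was 46.6% at 2 steps in model number, 46.2% at 3, 49.0% at 4 and 52.3% at 5. For the 2-fold measure the share was 14.4% of 118 models at 2 steps, at 3 steps 12.3% of 106, at 4 steps 12.5% of 96 and at 5 steps 12.5% of 88. Scaffolds 46016 and 46064, the only ones where 2 or more such neighbours had a rule fold of at least 3, contributed part of the 2-fold share and were singled out after their values were seen. Without members on these scaffolds the 2-fold share was 20.7% of 135 models at 1 step, 10.8% at 2 steps, 9.28% at 3, 11.4% at 4 and 12.5% at 5, and the share nearest the background was that at 3 steps.

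**Figure D4:**
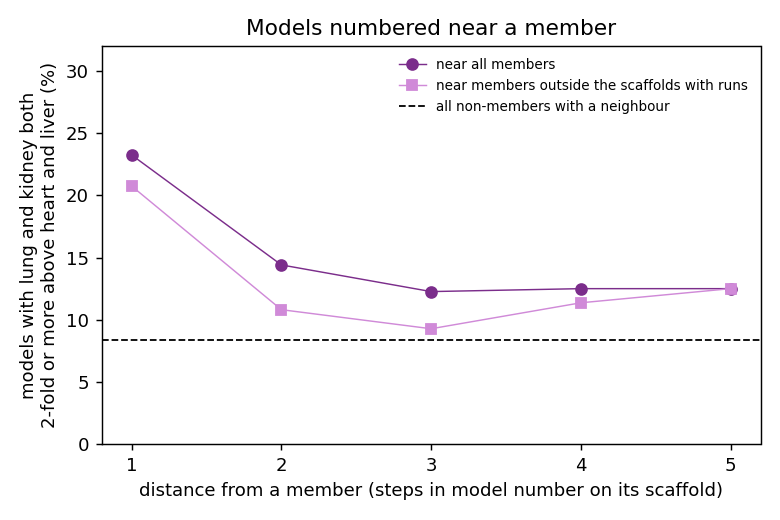
Share of models (%) with lung and kidney both at least 2-fold above heart and liver, on the RPKM + 1 scale, by distance from a member in model number, for all members (circles) and without those on scaffolds 46016 and 46064 (squares). The dashed line is the background of 8.35%; for all members the share is 23.2% at 1 step and between 12.3% and 14.4% farther away.

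On scaffolds 46016 and 46064 the shared pattern ran over several models in a row. Models 45 to 48 of scaffold 46016 were at 8.24, 20.3, 30.8 and 8.48 RPKM in lung and at 31.6, 38.5, 43.8 and 10.5 in kidney, while heart stayed at 0.372 or below and liver at 2.69 or below. The outer 2 of these missed membership only because lung was under 10 RPKM. Model 44 of the same scaffold stood at 57.2 RPKM in kidney and 0.138 in lung, so the pattern ended there in lung but not in kidney. Along models 41 to 46 of scaffold 46064, lung lay between 6.11 and 14.5 RPKM and kidney between 10.5 and 53.7, with heart at 1.36 or below and liver at 1.84 or below. Of these only models 42 and 44 were members: evm.model.scaffold46064.42 was at 12.3 RPKM in lung (10.3 to 14.5), 18.4 in kidney (15.3 to 21.9), 1.36 in heart (0.874 to 2.03) and 1.37 in liver (0.550 to 2.82).

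On scaffold 8882 lung and kidney were both above heart and liver in every model from 34 to 38, but by very unequal folds. Its members evm.model.scaffold8882.35 and evm.model.scaffold8882.38 differed from each other in level. The first, with 1866 bases, was at 98.97 RPKM in lung (94.2 to 104), 84.3 in kidney (78.8 to 90.1), 0.152 in heart (0.0415 to 0.390) and 0.131 in liver (0.00332 to 0.730), a rule fold of 74.01. Model 36, beside the first, had 105 RPKM in lung and 60.4 in kidney but also 30.6 in heart and 32.6 in liver. Model 37, beside the second, had 6.40 RPKM in lung, 31.1 in kidney, 0.345 in heart and 1.46 in liver, a rule fold of 3.01, close to the 3.08 of model 41 on scaffold 46064. Model 39, also beside the second, had 196 RPKM in lung, 64.8 in heart, 5.54 in kidney and 1.84 in liver. Of the neighbours printed here, model 37 had the shared pattern at a lower level and models 36 and 39 had clear heart levels.

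**Figure D5:**
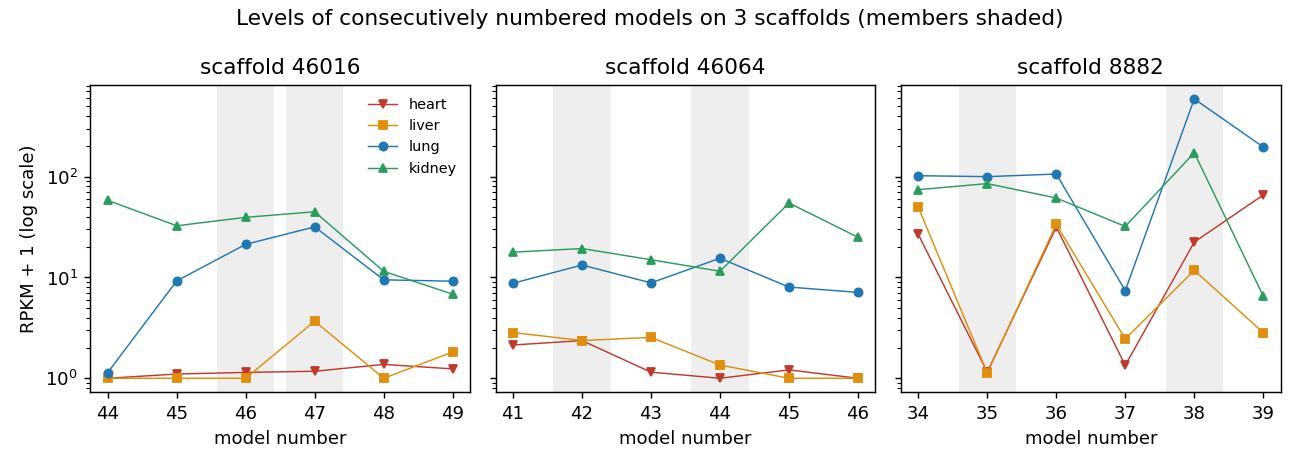
RPKM + 1 on a log axis for consecutively numbered models of scaffolds 46016, 46064 and 8882 in the 4 libraries, with members shaded. On the first 2 scaffolds lung and kidney lie above heart and liver in every model from 45 to 49 and from 41 to 46, while on scaffold 8882 the same holds from 34 to 38 with heart and liver rising and falling from model to model.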

How the data were processed

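Each library has 1 deposited table. Per the file headers it gives a whole read count per gene model, the model length, the library total and an RPKM deposited by the authors. Counts summed to the stated totals, and RPKM equalled count over length and total within a relative tolerance of 1e-12. Models missing from a table were taken as 0 reads. The submitters' processing notes name TopHat. For the read counter, strand use, genome build and annotation, nothing is given in the sources used here.

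The members, comparison sets and rules were chosen with earlier results of these data known, and the steps beyond 1 in model number and the 2-fold measure of neighbours after their values were seen. Named models were at most 2 per direction and comparison: highest level, steepest fold, largest lung to kidney and heart to liver difference either way, nearest the 5-fold limit, longest, shortest, and those of scaffolds with several members. Planned marker lists could not be matched. Intervals are exact at 95%: Poisson for counts, Clopper-Pearson for shares and ratios of counts. At the median member length a single read stood for 0.0841 RPKM in lung, 0.136 in kidney, 0.182 in liver and 0.0530 in heart. The rule was run on simulated Poisson counts with planted folds away from the 5-fold limit. That check does not cover models near the limit, variation between animals or the scale of the libraries. Alternatives were a pseudocount of 0.1, 3-fold and 10-fold minimums, 1 and 20 RPKM, 2 scalings, thinning to 4090775 reads, models listed in all 4 tables, and each exclusion dropped. Computations used numpy 2.4.6, pandas 2.3.3 and scipy 1.17.1 in Python 3.11.15, and matplotlib 3.10.9 drew the figures.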

Additional observations from a re-analysis of the deposited data

How the results depend on the processing

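No paired analysis was possible because no tissue has a second library, which also means that none can be left out in turn. The neighbour alternatives were chosen after seeing the data. Of 89 values of the set under 11 alternatives (12 for the neighbours), 55 stayed within 1.5 times (counts) or within the interval of the reported value (shares and medians), and 34 moved; 22 members were kept in every alternative. All medians of length and of the lung to kidney and heart to liver differences stayed within their intervals. Each was taken over the models that the alternative selected. For the 98 members themselves, median-ratio scaling moved the median heart minus liver difference to -0.16, outside its interval of -0.11 to 0.08. The member count of 98 became 247 at a 3-fold minimum, 51 at 10-fold, 65 at a minimum of 20 RPKM and 57 under median-ratio scaling. The share of lung reads became 1.28% with a pseudocount of 0.1, 2.61% at 3-fold, 0.423% at 10-fold, 1.16% at 1 RPKM, 1.02% at 20 RPKM, 0.726% under median-ratio and 1.10% under TPM-like scaling, 1.05% for models listed in all 4 tables, 1.16% with no length or scaffold exclusion and 1.19% with models of 1 tissue kept. In the same order the share of kidney reads became 1.33%, 2.51%, 0.584%, 1.18%, 1.01%, 0.686%, 1.36%, 1.06%, 1.17% and 1.52%. Members on a scaffold with another member, 17 in the report, became 29 with a pseudocount of 0.1, 84 at 3-fold, 4 at 10-fold, 28 at 1 RPKM, 8 at 20 RPKM, 6 under median-ratio and 32 under TPM-like scaling, and 8 for models listed in all 4 tables. The share of neighbours with lung and kidney above heart and liver became 59.4% of 69 models at 10-fold and 28.0% of 82 under median-ratio scaling. Both were taken beside the models that the alternative selected. The 3-fold and 10-fold settings also moved the bound for models of 1 tissue, so 2 choices changed together, and the first lost 10 members while the second gained 6 other models. A changed RPKM minimum, a changed fold with its bound and a dropped exclusion change which models pass by construction. So does the demand for listing in all 4 tables, which removed the 23 members with 0 reads in heart or liver. For the other settings the cause was not tested. Of 64 log2 lung to kidney ratios of named models, 45 kept inside the counting interval, 18 moved beyond it and 1 reversed: evm.model.scaffold47809.1 went from -0.21 to 0.068 under TPM-like scaling. Depth limits liver most, where members had a median of 5.5 reads.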

Other observations

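The 21 models that met the rule for lung and kidney but were set aside were mostly tilted to kidney. Of these, 14 were at least 5-fold higher in kidney than in every other library and 1 was so in lung. The shares of all models with such 5-fold differences are not given here, so whether this tilt is particular to these models was not tested. At 2-fold, 18.7% of the 6902 models at 10 RPKM or more in both were higher in kidney and 15.9% in lung. Among the models set aside, the largest difference was in evm.model.scaffold46145.1, of 342 bases, at 2952 RPKM in kidney and 52.2 in lung (44.4 to 61.0). It had 6.03 in heart (4.04 to 8.66) and 2.86 in liver (0.779 to 7.32). The model set aside for lung, evm.model.scaffold21453.1 with 1207 bases, was at 172 RPKM in lung (165 to 181), 31.0 in kidney (26.9 to 35.5), 3.71 in heart (2.85 to 4.75) and 0.810 in liver (0.221 to 2.07).

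A pair of members had a neighbour among the models set aside. Next to evm.model.scaffold48110.8, with 16.6 RPKM in lung, 61.1 in kidney and 0 reads in heart and liver, stood evm.model.scaffold48110.7, with 42.5 in lung, 289.6 in kidney, 0.315 in heart and 0.217 in liver. Next to evm.model.scaffold14984.3 stood evm.model.scaffold14984.2, of 180 bases, with 24.5 RPKM in lung, 32.4 in kidney, 1.36 in liver from 1 read and 0 reads in heart. These pairs were chosen after their values were seen.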
